A study of Mus musculus with 13 samples.

Results

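H3K27ac at chemokine and chemokine receptor genes was described in 9 mouse melanoma cell lines. The genes were the protein-coding genes of the mm10 annotation whose symbol is Ccl, Cxcl, Ccr or Cxcr followed directly by a number, which gave 52 of 21951 genes, 35 of them ligands and 17 receptors. H3K27ac, acetylation of lysine 27 of histone H3, marks active promoters and enhancers, and in ChIP-seq DNA bound to marked histones is isolated with an antibody and sequenced. Each line was represented by 1 list of peaks called by the authors. All lines came from melanomas of mice with a Tyr::NRAS Q61K transgene, which drives oncogenic NRAS from the tyrosinase promoter, on a Cdkn2a +/- and Cdh1 F/F background backcrossed to C57BL/6J. The Ecad lines kept E-cadherin, the cell adhesion protein encoded by Cdh1, and comprised the male lines Ma_1007 and Ma_1181 and the female lines Ma_1014 and Ma_1039. The ΔEcad lines also carried Tyr::CreA, a Cre recombinase driven by the same promoter and so limited to the melanocyte lineage, and comprised the male lines Ma_1062 and Ma_1456 and the female lines Ma_1057, Ma_1064 and Ma_1069. The lines received no treatment before harvest, and with 1 list per line every p-value below measures only the spread between lines.

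Chemokines are small secreted proteins that guide the movement of leukocytes, and their receptors are G protein-coupled receptors carried mostly by leukocytes. Ligands of the Ccl family attract mainly monocytes, lymphocytes and eosinophils, whereas among the Cxcl ligands Cxcl1, Cxcl2, Cxcl3 and Cxcl5 attract neutrophils and Cxcl9 and Cxcl10 attract T cells that carry Cxcr3. Many of these genes lie side by side in clusters and are induced by NF-κB or interferon signalling, and tumour cells, melanoma cells among them, can secrete several of the ligands.

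The lists held 20741 to 41663 peaks, and the weakest peak of every list had a −log10 q above 5. The q-value is the false discovery rate that the peak caller gave a peak. All 6 melanocytic markers examined (Sox10, Mitf, Dct, Tyr, Pmel and Mlana) had a promoter peak in every line. Of 8 haematopoietic markers only Spi1 had one, in Ma_1007, and of 5 fibroblast markers only Pdgfra, also in Ma_1007. None of 4 endothelial and 3 keratinocyte markers had one in any line. The Cdh1 promoter carried no peak in any of the 9 lines, and 1 to 3 peaks lay in its gene body in every line. The deleted part of Cdh1 is not given in the sources used here, so these peaks do not check the genotype.

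A promoter was called marked when a peak lay within 1 kb of a transcription start site of any transcript of the gene. Of the 52 genes, 12 had a marked promoter in at least 1 line and 1, Ccl25, in every line. Over all protein-coding genes the shares were 52.9% in at least 1 line and 21.1% in every line. A peak overlapped the gene body of 14 of the 52 in at least 1 line and of 1 in every line, against 60% and 23.5% of all protein-coding genes. Neither kind of peak was found in any line for 37 of the 52. Chemokine genes thus carried promoter H3K27ac less often than protein-coding genes as a whole in each list.

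The number of marked promoters among the 52 genes was read in each line beside the share of all genes. In the male Ecad lines, Ma_1007 marked 7 genes (13.5%, with 48.6% of all genes) and Ma_1181 marked 8 (15.4%, with 43.8%). In the female Ecad lines, Ma_1014 marked 6 (11.5%, with 41.1%) and Ma_1039 marked 8 (15.4%, with 40%). In the male ΔEcad lines, Ma_1062 marked 5 (9.62%, with 38.4%) and Ma_1456 marked 2 (3.85%, with 39.5%). All 4 Ecad lines marked more of these genes than any ΔEcad line. In the female ΔEcad lines, Ma_1057 marked 4 (7.69%, with 30.1%), Ma_1064 marked 3 (5.77%, with 33.3%) and Ma_1069 marked 5 (9.62%, with 25.3%). The mean was 7.25 ± 0.957 (SD, n = 4) in Ecad and 3.8 ± 1.30 (SD, n = 5) in ΔEcad lines. Within the ΔEcad lines the females, at 4.0 ± 1.0 (SD, n = 3), and the males, at 3.5 ± 2.12 (SD, n = 2), overlapped. With every list shortened to its 20741 strongest peaks, the length of the shortest list, the Ecad lines marked 5 to 7 of the genes and the ΔEcad lines 1 to 5, and the genotypes overlapped. They also overlapped at a distance of 5 kb, where Ma_1014 marked 8 genes and Ma_1062 marked 9. The share of all genes with a marked promoter was also higher in every Ecad line than in any ΔEcad line, and the part of this in the count over chemokine genes was not tested.

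**Figure D1:**
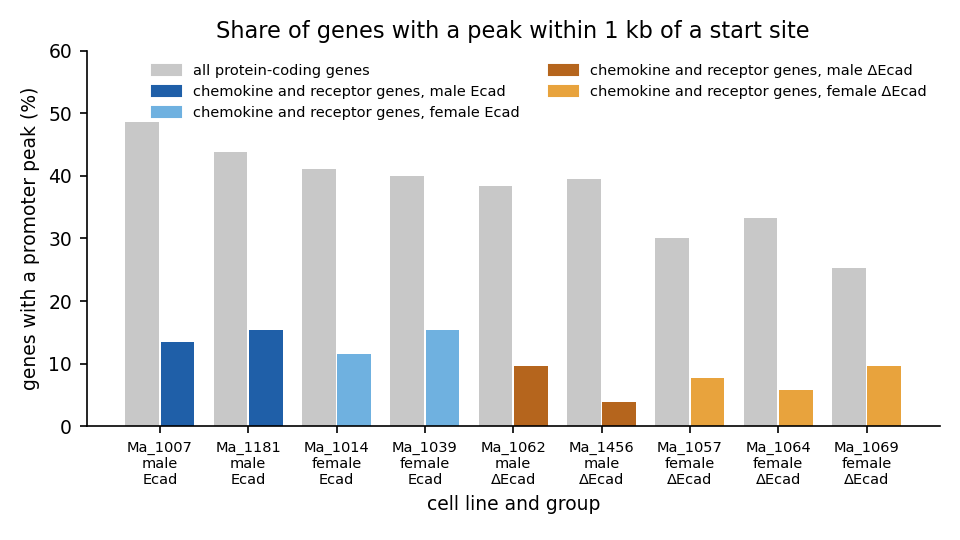
Percentage of promoters with an H3K27ac peak in each of the 9 lines, for the 52 chemokine and chemokine receptor genes and for all 21951 protein-coding genes. The chemokine genes lay between 3.85% and 15.4% and all genes between 25.3% and 48.6%.

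By family, marked promoters in at least 1 line were found for 3 of 23 Ccl, 5 of 12 Cxcl, 2 of 11 Ccr and 2 of 6 Cxcr genes. The 12 marked genes included the ligands Ccl5, Ccl25, Ccl27a, Cxcl5, Cxcl10, Cxcl12, Cxcl15 and Cxcl17 and the receptors Ccr10, Cxcr3 and Cxcr4. Cxcr5, Ccr9 and Cxcr6 had a peak in the gene body and never at the promoter. The ligands with neither were Ccl1, Ccl2, Ccl3, Ccl4, Ccl6, Ccl7, Ccl8, Ccl9, Ccl11, Ccl12, Ccl17, Ccl19, Ccl20, Ccl21a, Ccl21b, Ccl22, Ccl24, Ccl26, Ccl27b, Ccl28, Cxcl1, Cxcl2, Cxcl3, Cxcl9, Cxcl13, Cxcl14 and Cxcl16. The receptors with neither were Ccr1, Ccr1l1, Ccr2, Ccr3, Ccr4, Ccr6, Ccr7, Ccr8, Cxcr1 and Cxcr2. Over the 40 genes whose promoter was never marked, the median distance from a start site to the nearest peak was 50.1 kb, and the shortest in any line was 1.84 kb. Over all genes of a family, marked ones included, the median distance was 16.6 kb for Cxcl and 5.8 kb for Cxcr genes. It was 60.0 kb for Ccl and 43.2 kb for Ccr genes.

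**Figure D2:**
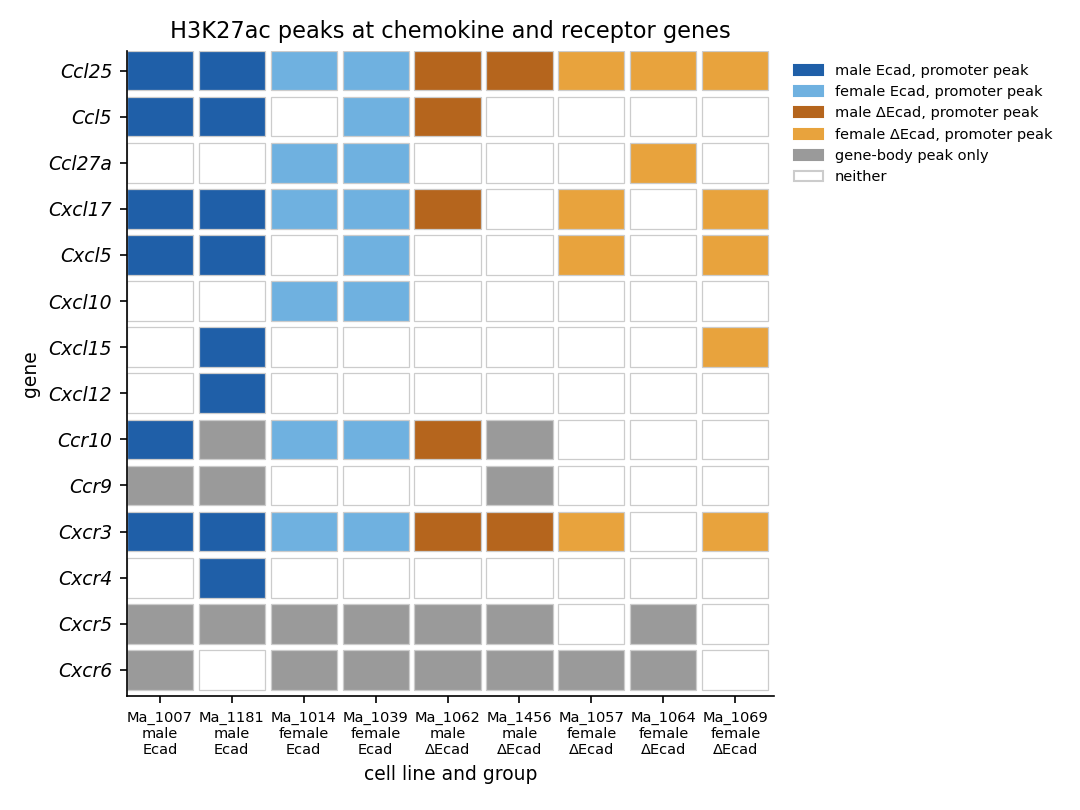
Promoter and gene-body peaks of 14 chemokine and chemokine receptor genes that had either in at least 1 of the 9 lines. Ccl25 had a promoter peak in all 9 lines, Cxcr3 in all but Ma_1064, and Cxcl10 in the female Ecad lines Ma_1014 and Ma_1039.

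Among the ligands, Ccl25, which attracts thymocytes and gut-homing T cells through Ccr9, was the gene marked in every list. Its highest promoter peak had a −log10 q of 192 in Ma_1007, 270 in Ma_1181, 36.4 in Ma_1014 and 45.7 in Ma_1039. In the male ΔEcad lines it was 73.4 in Ma_1062 and 28.9 in Ma_1456. In the female ΔEcad lines it was 35.1 in Ma_1057, 28.3 in Ma_1064 and 36.4 in Ma_1069. The peaks stood at the 50.7th to the 88.5th percentile of their own lists and were 748 to 3795 bp wide. A weaker peak lay beside the highest one in 6 lines, and the summits of all 15 were nearer to the start site of Elavl1, the neighbouring gene of an RNA-binding protein, at 5 to 544 bp, than to that of Ccl25. Under the requirement that no other gene's start be nearer to the summit, Ccl25 was marked in no line. When a peak had to overlap a start site itself, Ccl25 was marked in the 4 Ecad lines and no ΔEcad line, as were 1.03% of all genes. That separation rested on few bases, since the peak inside the gene began at chr8:4325241 in Ma_1039 and between 4325263 and 4325309 in the ΔEcad lines.

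Cxcl10, the interferon-induced ligand of Cxcr3, was marked in both female Ecad lines and in no other line. This pattern ended with lists of equal length and when a peak had to overlap the start, where no line was marked, and at 5 kb, where 6 lines were. The peak was 1033 bp wide with a −log10 q of 10.3 in Ma_1014 and 1056 bp wide with 15.8 in Ma_1039, at the 11th and 26.7th percentile of those lists. Both were weak peaks whose summits lay 830 and 985 bp upstream of the start site, inside the annotated span of Art3. They covered the upstream part of the Cxcl10 promoter, whose sequence is shown to place the peaks against the motifs (RefSeq, GRCm38.p6, chr5:92348890-92349139, minus strand). Capitals mark the matches to the interferon-stimulated response element, the NF-κB consensus and AP-1 (TGANTCA), searched on both strands.
Cxcl10: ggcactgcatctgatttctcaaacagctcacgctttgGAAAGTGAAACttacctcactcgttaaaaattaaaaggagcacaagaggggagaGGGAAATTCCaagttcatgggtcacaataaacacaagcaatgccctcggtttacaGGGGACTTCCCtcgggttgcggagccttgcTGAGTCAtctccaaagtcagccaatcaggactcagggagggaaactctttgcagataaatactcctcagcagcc
In order of position, the capitals are the interferon element at −213 to −203 from the start, NF-κB at −159 to −150, a pair of NF-κB matches at −104 to −95 and −103 to −94 that share 9 bases, and AP-1 at −74 to −68. The peak of Ma_1014 reached to base −138 and so held the interferon element and the first NF-κB match. The peak of Ma_1039 reached to base −164 and held the interferon element alone. A match is a run of letters and was not tested as a binding site.

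The 3 neutrophil-attracting ligands Cxcl1, Cxcl2 and Cxcl3 never had a promoter peak, and their promoters are shown because each holds an NF-κB match at nearly the same place. The sequences, from RefSeq on GRCm38.p6 and the plus strand, were chr5:90890995-90891240 for Cxcl1, chr5:90903649-90903870 for Cxcl2 and chr5:90785851-90786100 for Cxcl3, with NF-κB matches in capitals.
Cxcl1: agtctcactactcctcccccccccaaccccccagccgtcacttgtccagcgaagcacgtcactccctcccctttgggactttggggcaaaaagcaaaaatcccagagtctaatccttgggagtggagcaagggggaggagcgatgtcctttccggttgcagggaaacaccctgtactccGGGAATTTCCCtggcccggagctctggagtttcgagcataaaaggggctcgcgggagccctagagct
Cxcl2: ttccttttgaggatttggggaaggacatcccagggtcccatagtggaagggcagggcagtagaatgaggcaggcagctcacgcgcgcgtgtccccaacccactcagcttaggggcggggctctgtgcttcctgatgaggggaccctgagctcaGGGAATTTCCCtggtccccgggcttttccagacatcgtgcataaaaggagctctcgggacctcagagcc
Cxcl3: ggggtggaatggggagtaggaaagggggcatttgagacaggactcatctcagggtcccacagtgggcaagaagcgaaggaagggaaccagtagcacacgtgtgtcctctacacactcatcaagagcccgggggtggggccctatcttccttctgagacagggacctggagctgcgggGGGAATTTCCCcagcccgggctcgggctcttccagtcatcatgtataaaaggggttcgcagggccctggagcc
The capitals run from −67 to −57 in Cxcl1, from −69 to −59 in Cxcl2 and from −75 to −65 in Cxcl3, and each run is a pair of matches on opposite strands that share 9 bases. A RefSeq promoter entry was found for 38 of the 52 genes, 7 of them among the 12 marked ones. Of the 38, the 250 bases before the start held an NF-κB match in 10 (26.3%), namely Ccl1, Ccl9, Ccl20, Ccr1, Ccr3, Ccr6, Cxcl1, Cxcl2, Cxcl3 and Cxcl10, against 7.25% of all 32851 promoter entries. The interferon element was found in Ccl19 and Cxcl10 (5.26%, against 1.63%) and AP-1 in 6 (15.8%, against 6.75%). A chemokine gene counted when any of its entries held a match, whereas the shares over all promoters counted single entries. The shares are therefore not the same measure. Of the genes holding NF-κB, 9 were among the 31 unmarked genes with an entry and 1, Cxcl10, among the 7 marked ones. These sequences and motif counts were chosen after the calls had been seen.

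Cxcl5, another ligand of neutrophils, was marked in Ma_1007, Ma_1181, Ma_1039, Ma_1057 and Ma_1069. In each of the 5 lines a pair of peaks flanked the start site, with summits 1060 to 1130 bp upstream and 892 to 999 bp downstream. The upstream peak had a −log10 q of 36.0 in Ma_1007, 150 in Ma_1181, 13.4 in Ma_1039, 32.2 in Ma_1057 and 5.73 in Ma_1069. Within their own lists these upstream peaks stood at percentiles from 1.41 in Ma_1069, close to the threshold, to 78.8 in Ma_1181. The downstream peak had a −log10 q of 71.2, 32.2, 13.4, 56.8 and 27.2 in the same order of lines, and the highest percentile was 79.1 in Ma_1057. Both male Ecad lines carried the mark and both male ΔEcad lines lacked it, whereas the females of either genotype were mixed.

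The other marked ligands were seen in part of the lines, and their values were chosen for printing after they had been seen. Ccl5, which attracts T cells and monocytes, was marked in Ma_1007, Ma_1181, Ma_1039 and Ma_1062, with a −log10 q of 38.8, 76.5, 26.8 and 31.5 in that order and summits 896 to 1024 bp inside the gene. At 500 bp only Ma_1181 marked Ccl5, and no line did when a peak had to overlap the start. Ccl27a, a skin-homing chemokine that acts on Ccr10, was marked in Ma_1014 (38.04), Ma_1039 (18.9) and Ma_1064 (10.7), with summits 64 to 109 bp downstream of the start. Ccl27a was thus marked in 3 of 5 female lines and 0 of 4 male lines. With lists of equal length only Ma_1014 and Ma_1039 marked Ccl27a, the peak of Ma_1064 standing at the 18.65th percentile of its list. Cxcl15, a lung chemokine, was marked in Ma_1181 (79.5) and Ma_1069 (11.8), and Cxcl12, the ligand of Cxcr4, in Ma_1181 alone (69.8). Cxcl17, a mucosal chemokine, was marked in all lines except Ma_1456 and Ma_1064, with a −log10 q from 15.8 to 28.5 for the highest peak in each of the 7 lines. The Cxcl17 peaks had summits 149 to 859 bp upstream of the start, inside the annotated span of another gene, 4732471J01Rik. No other gene's start was nearer to these summits.

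Among the receptors, Cxcr3, the receptor of activated T cells for Cxcl9 and Cxcl10, was marked in all lines except Ma_1064. Its highest peak had a −log10 q of 86.7 in Ma_1007, 32.2 in Ma_1181, 31.6 in Ma_1014 and 55.0 in Ma_1039. In the ΔEcad lines it was 65.7 in Ma_1062, 12.2 in Ma_1456, 25.7 in Ma_1057 and 13.4 in Ma_1069. Within their own lists these peaks stood at percentiles from 20.4 in Ma_1456 to 77.2 in Ma_1062, and they were 385 to 2200 bp wide. The summits of these 8 peaks lay 365 to 624 bp downstream of the start in an intron, and in Ma_1057 and Ma_1069 a further peak lay upstream of it. A stretch of 250 bases of the intron, which holds the summits of 7 of the 8 lines and not that of Ma_1014, is shown as the sequence under the receptor peak found in most lines (GRCm38.p6, chrX:101733581-101733830, minus strand). They overlapped no annotated exon and held no match to the NF-κB, interferon or AP-1 motif, so no base is in capitals.
Cxcr3: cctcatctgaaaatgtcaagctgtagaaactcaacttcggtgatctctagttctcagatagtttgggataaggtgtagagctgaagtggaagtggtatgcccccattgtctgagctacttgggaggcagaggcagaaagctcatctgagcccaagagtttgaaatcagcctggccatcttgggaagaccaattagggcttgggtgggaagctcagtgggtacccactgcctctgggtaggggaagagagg
The peak values of Cxcr3 and of the receptors that follow were also chosen after they had been seen.

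Ccr10, the receptor of Ccl27a, was marked in Ma_1007, Ma_1014, Ma_1039 and Ma_1062, and Ma_1181 and Ma_1456 had a peak in its gene body only. The promoter peak had a −log10 q of 113 in Ma_1007, 59.0 in Ma_1014, 32.97 in Ma_1039 and 12.4 in Ma_1062, and the gene-body peak one of 33.8 in Ma_1181 and 23.9 in Ma_1456. No female ΔEcad line had a peak of either kind, and each of the 6 other lines had one. The peaks lay 1042 to 1633 bp downstream of the start of Ccr10, within the annotated span of Cntnap1 as well. Cxcr4, the receptor of Cxcl12, was marked in Ma_1181 alone (8.88, within the lowest 5.82% of its list). Ma_1181 was thus the line that marked both Cxcl12 and Cxcr4.

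The receptors with gene-body peaks alone were Cxcr5, Cxcr6 and Ccr9. Cxcr5, the follicular homing receptor of B cells, had such peaks in all lines except Ma_1057 and Ma_1069. In 6 of those 7 lines a summit lay 7079 to 7376 bp on the upstream side of the nearest annotated start, within the gene's annotated span. Ma_1064 had only a peak 2641 bp downstream. Ma_1007, Ma_1039 and Ma_1062 had such a downstream peak as well, at 2721, 2619 and 2590 bp. Cxcr6, a receptor of T cells and natural killer T cells, had 1 peak in all lines except Ma_1181 and Ma_1069, from 12.15 in Ma_1057 to 61.6 in Ma_1014 on the −log10 q scale. It lay 2147 to 2485 bp downstream of the start and within the span of Fyco1. The Ccr9 peaks of Ma_1007 and Ma_1181 lay 152 and 189 bp from the start of Lztfl1, and that of Ma_1456 lay 8151 bp into Ccr9.

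Promoter calls were compared between groups to ask whether genotype, sex or both separated the lines. None of the 52 genes was marked in all female ΔEcad lines and no other line, or in all other lines and no female ΔEcad line, patterns held by 0.0182% and 2.43% of all protein-coding genes. None was marked in all ΔEcad and no Ecad lines (0% of all genes) or the reverse (0.615%). None was marked in all lines of one sex and none of the other, which held for 0.00456% of all genes in the direction of females and 0.255% in that of males. Within the females, Cxcl10 and Ccr10 were marked in both Ecad lines and no ΔEcad line, as were 5.73% of all genes, and none of the 52 showed the reverse (0.314%). At 5 kb, Ma_1064 and Ma_1069 also marked Ccr10, and at 500 bp only Ma_1007 and Ma_1014 marked it. Within the males, Cxcl5 was marked in both Ecad lines and no ΔEcad line, as were 3.45% of all genes, and none showed the reverse (0.114%). At 500 bp, Ma_1181 alone marked Cxcl5. The pair came to 3.85% of the 52 genes within the females, and the 1 gene within the males to 1.92%.

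In two-sided Fisher's exact tests with Benjamini-Hochberg adjustment over all protein-coding genes, 0 of the 52 genes differed between any of these groups, and 0 had an unadjusted p under 0.05. The smallest unadjusted p over the 9 lines was 0.167 by Fisher's exact test, for Ccl5 and Ccr10 in female ΔEcad (0 of 3) against the other lines (4 of 6), for Cxcl10 in ΔEcad (0 of 5) against Ecad (2 of 4) and for Ccl27a between the sexes. Within the females the exact p of Cxcl10 and Ccr10 was 0.1, and within the males that of Cxcl5 was 0.333, the smallest that 3 against 2 and 2 against 2 lines allow. Over all genes 980, 661 and 357 had an unadjusted p under 0.05 for female ΔEcad against the rest, for genotype and for sex, and none passed after adjustment.

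The length covered by peaks was then taken from each gene's span with 50 kb on each side, since few of these genes had a peak at the promoter. Ccr10 had 4.51 kb covered in Ma_1007, 5.4 kb in Ma_1181, 7.38 kb in Ma_1014, 5.83 kb in Ma_1039, 2.02 kb in Ma_1062 and 4.08 kb in Ma_1456. In the female ΔEcad lines it had 0 kb in Ma_1057, 0.615 kb in Ma_1064 and 0.822 kb in Ma_1069. All 3 female ΔEcad lines lay under the 6 others, with means of 0.479 ± 0.428 kb (SD, n = 3) and 4.87 ± 1.81 kb (SD, n = 6). The exact permutation p of this difference was 0.0119, the smallest that 3 against 6 lines allow, and 0.0981 after adjustment over all genes. Ccr7, the receptor that leads lymphocytes and dendritic cells to lymph nodes, went the other way.

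Ccr7 had 10.1 kb covered in Ma_1057, 6.82 kb in Ma_1064 and 6.44 kb in Ma_1069. The other lines had 6.04 kb in Ma_1007, 2.17 kb in Ma_1181, 3.41 kb in Ma_1014, 1.44 kb in Ma_1039, 0.66 kb in Ma_1062 and 2.02 kb in Ma_1456. The female ΔEcad lines did not overlap the others, although Ma_1007 lay close to them, and the difference was 5.17 kb (exact permutation p = 0.0119, adjusted 0.0981). Ccr7 was the only one of the 52 genes with more covered length in every female ΔEcad line than in any other line, as had 0.528% of all genes. Ccr10, Ccl27a, Ccr6 and Ccl17 had less in every one, 4 of 52 or 7.69%, against 20.2% of all genes. With peaks of −log10 q of at least 10 only, the Ccr7 groups overlapped. No region in any line lay within 30 kb of the Ccr7 start, and in the female ΔEcad lines the regions lay 35.6 to 59.7 kb downstream of it, nearest to the start of Tns4. The lengths of the other genes likewise took in peaks at neighbouring genes, such as Plekhh3 beside Ccr10 and Mpc1 beside Ccr6.

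Ccl27a and Ccr6, the receptor of Ccl20, averaged 0.543 and 0.25 kb in female ΔEcad lines and 3.63 and 2.49 kb in the others, each with an exact permutation p of 0.0238 and an adjusted p of 0.135. Ccl17, a ligand of Ccr4, averaged 0.639 and 1.84 kb (exact permutation p = 0.107, adjusted 0.297). Between genotypes, Ccl26, an eosinophil-attracting chemokine, had more covered length in every ΔEcad line than in any Ecad line (0.041% of all genes), with means of 1.86 and 0.116 kb (exact permutation p = 0.0397, adjusted 0.298). The ΔEcad mean rested largely on Ma_1456 with 5.59 kb, the other 4 lines having 0.65 to 1.27 kb. Cxcl17 and Ccr10 had less in every ΔEcad line (5.82% of all genes), by differences of −5.28 and −4.27 kb, each with an exact permutation p of 0.0159 and an adjusted p of 0.262. None of the 52 genes in either comparison, and no gene over the whole annotation, passed the adjusted threshold, while 5477 and 3355 of all genes, and 5 and 5 of the 52, had an unadjusted p under 0.05. The median difference over all genes was −0.86 kb for female ΔEcad against the rest and −0.617 kb for ΔEcad against Ecad, and over the 52 genes it was −0.463 and −0.141 kb.

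**Figure D3:**
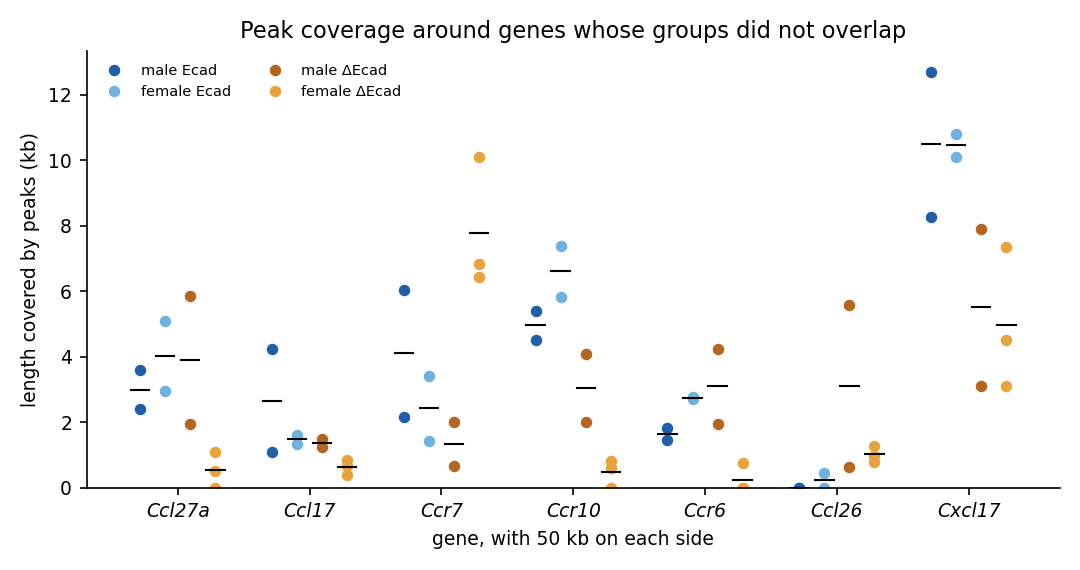
Length covered by H3K27ac peaks, in kb, in the span of a gene with 50 kb on each side, for genes whose female ΔEcad or ΔEcad lines did not overlap the other lines. Each point is 1 line, coloured by group, with a bar at the group mean, and Ccr10 lay at 0 to 0.822 kb in the female ΔEcad lines and at 2.02 to 7.38 kb in the others.

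Neighbouring genes were then read together. Start sites at most 250 kb apart joined 34 of the 52 genes into 9 clusters, and 18 genes stood alone. The window of a cluster or single gene was its span with 50 kb on each side. Peaks of the 9 lists that overlapped were merged into 142 regions over all windows, and windows of Ccl21b, Cxcl13 and Ccr4 held none in any line.

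The cluster of Cxcl5, Cxcl3, Cxcl15, Cxcl1 and Cxcl2 (chr5:90759360-90905938, mm10) had 13 regions. The covered length was 9.78 kb in Ma_1007, 16.0 kb in Ma_1181, 3.17 kb in Ma_1014 and 4.95 kb in Ma_1039. In the ΔEcad lines it was 3.13 kb in Ma_1062, 3.39 kb in Ma_1456, 7.85 kb in Ma_1057, 1.12 kb in Ma_1064 and 6.38 kb in Ma_1069. Genotypes and sexes overlapped, with the 2 male Ecad lines highest. A region 17.4 kb upstream of Cxcl5 was held by all 9 lines, with a −log10 q from 34.6 in Ma_1014 to 942 in Ma_1181. Another, 13.3 kb downstream of the start of Cxcl15, was held by all lines except Ma_1064, and one 5.9 kb upstream of Cxcl1 by Ma_1007, Ma_1057 and Ma_1069. The nearest region to Cxcl2 lay 3.3 kb upstream in Ma_1181 alone. The mark in this cluster thus lay beside and between the genes more often than at their starts.

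The pair Cxcl9 and Cxcl10 (chr5:92321347-92348889) had the widest spread of covered length among the clusters, with 6.88 kb in Ma_1007, 8.37 kb in Ma_1181, 19.6 kb in Ma_1014 and 18.3 kb in Ma_1039. In the ΔEcad lines it was 4.2 kb in Ma_1062, 17.6 kb in Ma_1456, 12.6 kb in Ma_1057, 9.51 kb in Ma_1064 and 4.75 kb in Ma_1069. The female Ecad lines were highest, followed by the male ΔEcad line Ma_1456. Regions 4.6 kb upstream of Cxcl9 and 11 and 26.7 kb upstream of Cxcl10 were held by all 9 lines, and all 3 lay within the annotated span of Art3, an ADP-ribosyltransferase gene. The region 11 kb upstream of Cxcl10 had a −log10 q of 55.6 in Ma_1007, 156 in Ma_1181, 333 in Ma_1014, 117 in Ma_1039, 37.0 in Ma_1062, 144 in Ma_1456, 46.2 in Ma_1057, 54.7 in Ma_1064 and 31.8 in Ma_1069. Cxcl9, another interferon-induced ligand of Cxcr3, had no peak within 1 kb of its start in any line and was marked in all lines at 5 kb.

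**Figure D4:**
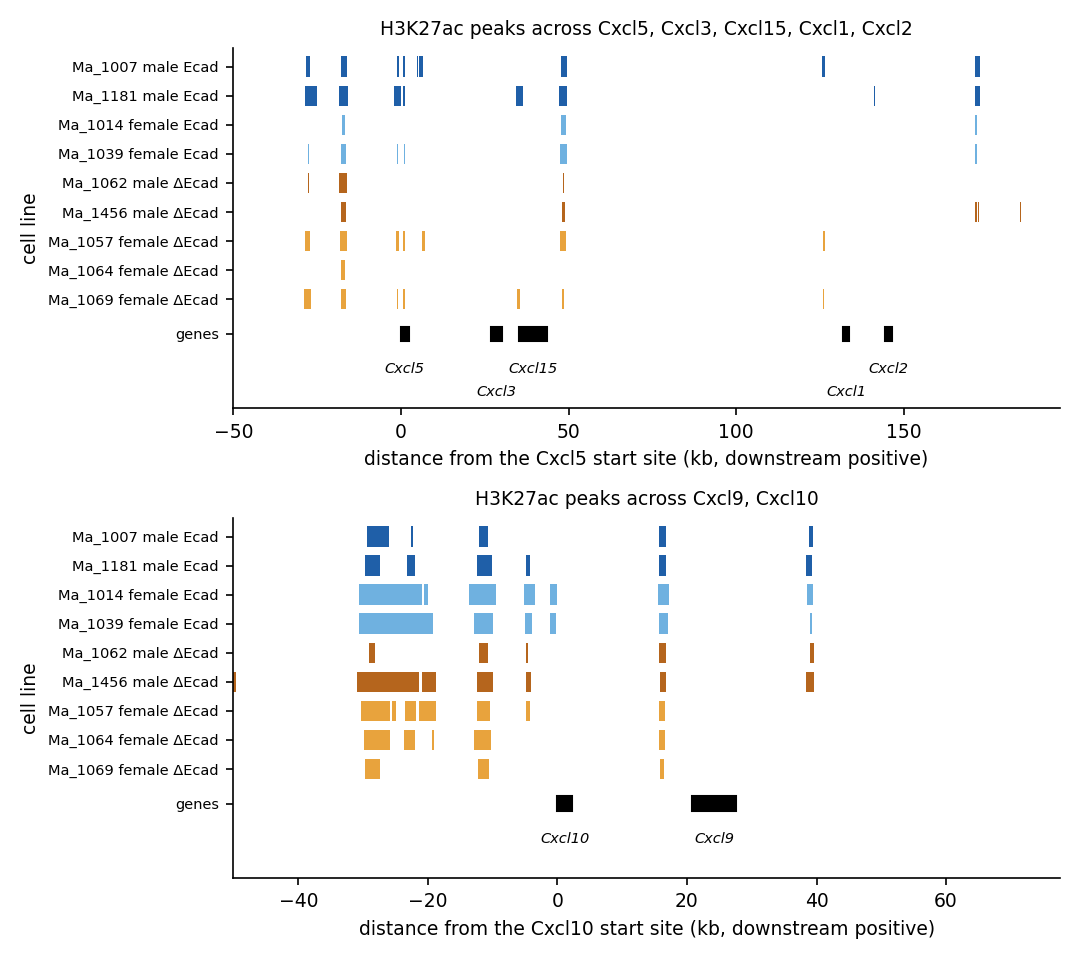
Peaks of the 9 lines drawn to width by distance in kb from the start sites of Cxcl5 and of Cxcl10, downstream positive, with the genes of each cluster as black bars and the peaks coloured by group. The region 17.4 kb upstream of Cxcl5 and the regions over Art3 were held by every line, whereas the Cxcl10 promoter was reached by a peak in Ma_1014 and Ma_1039 alone.

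The cluster of Ccl5, Ccl9, Ccl6, Ccl3 and Ccl4 (chr11:83525778-83664683), ligands of T cells and monocytes, had 8.38 kb covered in Ma_1007, 7.3 kb in Ma_1181, 3.7 kb in Ma_1014 and 4.78 kb in Ma_1039. The ΔEcad lines had 2.46 kb in Ma_1062, 1.83 kb in Ma_1456, 2.84 kb in Ma_1057, 6.98 kb in Ma_1064 and 1.1 kb in Ma_1069. All ΔEcad lines except Ma_1064 lay under the Ecad lines. Within the span of the genes the regions were those at Ccl5 and 2 small ones between Ccl6 and Ccl3, in Ma_1007 and Ma_1064.

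The cluster of the monocyte and eosinophil chemokines Ccl2, Ccl7, Ccl11, Ccl12, Ccl8 and Ccl1 (chr11:82035571-82305690) was without a peak in 8 of 9 lines. Ma_1456 had 3 peaks there, 2.3, 28.4 and 38.5 kb upstream of Ccl2, with a −log10 q of 12.3, 24.8 and 26.0. No line had a peak among the genes themselves. The widest cluster, of receptors that include Ccr9, Cxcr6 and Ccr1, lay on chromosome 9, with 13.7 kb covered in Ma_1007 and 2.15 to 8.22 kb in the other 8 lines. A region 43.5 kb downstream of the start of Ccr1 was held by all lines except Ma_1069, with a −log10 q of up to 405 in Ma_1007. In the other clusters Cxcr2 and Cxcr1 had 1.12 to 8.87 kb, Ccl26 and Ccl24 had 0.406 to 6.46 kb, and Ccl22 and Ccl17 had 1.43 to 5.51 kb. Ccl27b, Ccl19 and Ccl21a had 0.9 kb in Ma_1181, 0.87 kb in Ma_1014, 1.84 kb in Ma_1062 and none in the other 6 lines.

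**Figure D5:**
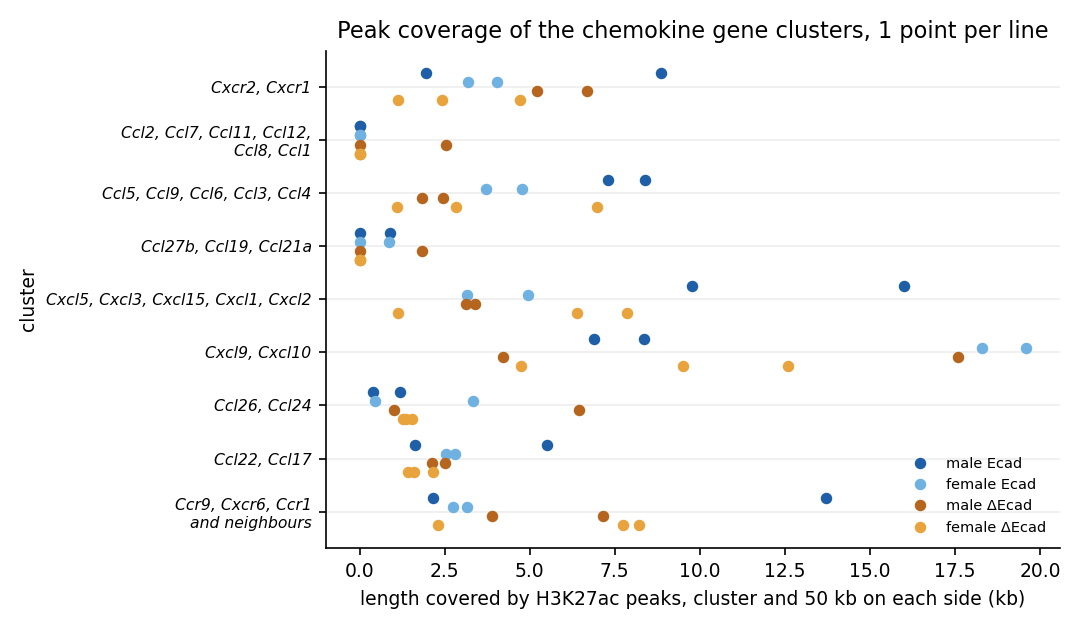
Length covered by H3K27ac peaks, in kb, in the windows of the 9 clusters (span with 50 kb on each side), by line. The Cxcl9 to Cxcl10 window ranged from 4.2 kb in Ma_1062 to 19.6 kb in Ma_1014, and the Ccl2 to Ccl1 window was 0 in all lines except Ma_1456.

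Of the 142 regions in these windows, 23 (16.2%) were held by all lines and 40 (28.2%) by 1 line, against 13.7% and 34% of the 59673 regions of the genome. The regions that followed the groups are named because they are few, after their values had been seen. Regions held by the 3 female ΔEcad lines and no other were 2 (1.41%, against 0.434%), lying 39.9 kb downstream of the start of Cxcr4 and 32.8 kb upstream of Cxcr3. The Cxcr4 region had a −log10 q of 14.8 in Ma_1057, 13.0 in Ma_1064 and 10.91 in Ma_1069. Regions held by the 6 other lines and no female ΔEcad line were 5 (3.52%, against 1.34%). Among them were regions at the start of Sdad1 beside Cxcl9, at the start of Plekhh3 beside Ccr10, 1.6 kb into Ccr10, and inside the span of Cxcr5, 7.2 kb from its nearest annotated start. No region was held by all ΔEcad and no Ecad lines (0.00335% of the genome's regions). All Ecad and no ΔEcad lines held 1 (0.704%, against 0.551%). It lay 464 bp from the start of Arrb2, the nearest start, and 27.2 kb downstream of the start of Cxcl16.

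Genes that act with the chemokines were counted as 3 lists. Of 12 other chemokine-system genes, 9 were marked in no line, and the marked ones were Cklf in 5 lines, the scavenger receptor Ackr4 in Ma_1007, Ma_1064 and Ma_1069, and Ccrl2 in Ma_1007. Of 11 inflammatory cytokines, 6 were marked in no line and the number marked per line was 0 to 4. Of 22 NF-κB and interferon regulators, 9 were marked in all lines and 3 in none. The number per line was 17 to 19 in the Ecad lines, 17 in Ma_1062, 15 in Ma_1456, 13 in Ma_1057 and Ma_1064 and 10 in Ma_1069. The share of all genes with a marked promoter was 40% to 48.6% in the Ecad lines and 38.4%, 39.5%, 30.1%, 33.3% and 25.3% in these ΔEcad lines in the same order. The part of that share in the counts of regulators was not tested. Nfkb2, a subunit of NF-κB, was marked in all 6 lines other than female ΔEcad and in none of those 3 (Fisher's exact test, p = 0.0119, adjusted 0.487). Stat2, which carries interferon signals, was marked in the 4 Ecad lines and in Ma_1062 alone of the ΔEcad lines (Fisher's exact test, p = 0.0476, adjusted 1.0, for ΔEcad against Ecad).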

How the data were processed

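H3K27ac ChIP-seq peak lists of 9 mouse melanoma lines were analysed, 1 list per line. Alignment by the authors was to GRCm38 (mm10) on the European Galaxy platform, and the submitters' processing notes name Bowtie2 2.4.5, MACS2 2.2.7.1 and deepTools 3.5.1.0.0. Each deposited list gives a peak's position, a whole-number score, its fold enrichment over local background (a linear ratio), its −log10 p and −log10 q (q-value), and the offset of its summit, all as the authors deposited them. They rank peaks inside their own list, and the order of lines by −log10 q given above is not an order of signal. In the region 11 kb upstream of Cxcl10, Ma_1181 had a −log10 q of 156 at the 79.6th percentile of its list. Ma_1456 had 144 there at the 94.0th percentile. No read counts were used here, so the depth of a list is unknown and no counting error is attached to a peak. A region without a peak is not a region without the mark, and a longer list can mark more promoters. The 4 input libraries were not analysed here.

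Start sites came from GENCODE release M21 (55450 genes, 141767 transcripts, 21951 protein-coding). A promoter was marked by a peak within 1 kb of any start site and a gene body by at least 1 bp of overlap. Named genes were every gene with a promoter peak in at least 1 list, with values per list for those marked in every list or following genotype or sex completely or with 1 exception, over all lines or within a sex. Other values were chosen after they had been seen. A few single genes are counted but not reported here by name. Groups followed the labels, which give no batch. Replicate numbers follow the order of deposition and pair no lines. Calls were compared by Fisher's exact test and covered lengths by exact permutation tests of the difference between means, both two-sided and adjusted by the Benjamini-Hochberg method over all protein-coding genes, and the code was tested on simulated lists. Alternatives were other distances, a −log10 q of at least 10, lists of equal length, protein-coding transcripts only, no nearer start of another gene, and each line left out. The genes, lists and tests were chosen with earlier results of these data known. Promoter sequences came from RefSeq (GRCm38.p6). Python 3.11.15, numpy 2.4.6, pandas 2.3.3 and scipy 1.17.1 were used.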

Additional observations from a re-analysis of the deposited data

Results flagged for a closer look

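A line lay far from the rest of its group in 6 of 30 groups examined over 10 measures. The measures were the marked genes per line and the covered length of the 9 clusters. The rule used is set to flag about 1 in 20 groups by chance. The 6 groups cannot be set against that rate, because groups share lines and in some windows most lines had no covered length. In the window of Ccl2 to Ccl1, Ma_1456 had 2.55 kb covered and no other line had any, which set it apart both among the ΔEcad lines and among the lines other than female ΔEcad. In the window of Ccl27b, Ccl19 and Ccl21a, Ma_1062 had 1.84 kb and the other 4 ΔEcad lines none. In the window of Ccl26 and Ccl24, Ma_1456 had 6.46 kb among the ΔEcad lines. In the window of Ccl22 and Ccl17, Ma_1007 had 5.51 kb among the lines other than female ΔEcad. In the window of the receptor cluster with Ccr9, Cxcr6 and Ccr1, Ma_1007 had 13.7 kb among the Ecad lines, and this line also had the longest list, at 41663 peaks. The part of the list's length in these values was not tested. No measure separated every line by genotype within each sex and in opposite directions in males and females. Opposite differences between group means, with lines that overlapped, were not counted.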

How the results depend on the processing

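The number of genes marked in every list was 1 as reported, 2 (Ccl25 and Cxcl9) when a peak within 5 kb of the start counted, 0 when the peak had to overlap the start site, 0 when no other gene's start could be nearer to the summit, and 1 to 2 with each line left out. The number marked in at least 1 list fell from 12 to 7 when the peak had to overlap the start, rose to 18 at 5 kb, and was 10 to 12 with each line left out. Under that overlap rule 1 gene, Ccl25, was marked in all Ecad and no ΔEcad lines, as were 1.03% of all genes. The difference in marked genes per line between ΔEcad and Ecad stayed between −3.87 and −2.35, and that between female ΔEcad and the other lines between −2.83 and −1.17. None of the 52 genes passed the adjusted Fisher's exact test under any alternative run. As reported, the smallest adjusted p of that Fisher's exact test over all genes was 0.487, so this result cannot show that the calls are stable.

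Differences in the share of marked lines changed sign for a few named genes, in percentage points. For female ΔEcad minus the others, Cxcl5 turned to −16.7 at 500 bp and under the overlap rule. With each line left out, Cxcl17 ranged from −33.3 to 16.7 (the sign turned without Ma_1064) and Cxcl15 from −16.7 to 33.3 (turned without Ma_1069). For ΔEcad minus Ecad, Cxcl15 ranged from −25.0 to 20 (turned without Ma_1181). Cxcl15 was marked in Ma_1181 and Ma_1069 alone, and Ma_1064 was the only female ΔEcad line without a Cxcl17 mark. At 500 bp and under the overlap rule, Ma_1181 alone marked Cxcl5. The turns thus came from the calls of single lines, and why those lines differed was not tested. Under alternatives added after the data were seen, the covered length of Ccl27a and Ccl26 lost its unadjusted p under 0.05 in 5 settings each, with differences from −3.37 to −2.7 kb and from 1.7 to 1.86 kb, and that of Ccl17 gained one with equal lists (−1.23 kb) and without Ma_1007 (−0.723 kb). Without Ma_1456, or without Ma_1064, 2 genes were higher in every female ΔEcad line, and without Ma_1456 4 were lower in every ΔEcad line.

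No paired analysis was possible because replicate numbers were given in the order of deposition and pair no lines. The depth behind each list is unknown, 2 or 3 lines per group limit the exact tests within a sex to the p-values given, and peaks shared by neighbouring genes cannot be assigned to one of them.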
